A study of Mus musculus with 45 samples.

Results

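Whether *Plag1* deficiency alters the difference between the inner and outer layers of the mouse uterus was asked with 31 of the 45 RNA-seq libraries of the series, those of scraped endometrium (endo) and of the remaining myometrium (myo). They were chosen by title and came from 14 mice, 7 wildtype (WT) and 7 *Plag1* knockout (KO). For endometrium there were 7 libraries of WT and 9 of KO, and for myometrium 8 of WT and 7 of KO, because KO mouse 13 had 3 endometrium libraries and WT mouse 12 had 2 myometrium libraries. Repeat libraries of a mouse and layer were summed, which left 28 samples, 1 per mouse and layer. All mice were sexually mature CD-1 females that had received 5 IU of PMS and, 2 days later, 5 IU of hCG, and were killed on the following day, so that both genotypes carried the same hormone treatment. The KO was a full-body deletion kept by heterozygote breeding, so a difference in a layer need not arise in that layer. The quantity tested was the interaction, the log2 fold change of endo over myo in KO minus the same fold change in WT. A negative value means that a gene was lower in KO endometrium, relative to KO myometrium, than the WT layers would give.

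The endometrium consists of a luminal and glandular epithelium on a stroma, whereas the myometrium is built of smooth muscle layers with connective tissue and vessels between them. Smooth muscle cells are recognised by a contractile apparatus of actins, myosin and their regulators, which serum response factor controls through the CArG box in the promoters of many of these genes. Gonadotropin treatment drives ovarian estrogen and progesterone production, to which both layers respond. PLAG1 is a zinc finger transcription factor whose best known target is *Igf2*, and PLAGL1 and PLAGL2 are its relatives.

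The 31 libraries held 264095 to 1024124 counts, of which 0.784% to 2.95% were ERCC spike-ins, and 3 counts in a library correspond to 2.96 to 11.7 CPM, the count of a gene relative to the total of its sample. *Plag1* itself had at most 1 count in any library, with 0 counts in WT endometrium, 1 in WT myometrium, 2 in KO endometrium and 1 in KO myometrium, so the genotype could not be checked from its own transcript. *Plagl1* had a mean of 2.27 CPM in WT and 2.05 CPM in KO endometrium, and 8.28 and 6.47 CPM in the respective myometrium. Its total counts, over unequal numbers of libraries, were 8 and 16 in WT and KO endometrium and 36 and 23 in myometrium. *Plagl2* had a mean of 6.04 CPM in WT and 7.22 CPM in KO endometrium, and 4.06 and 4.46 CPM in the respective myometrium. *Igf2* had 2.25 and 1.90 CPM in WT and KO endometrium and in myometrium 10.3 CPM in WT and 9.06 CPM in KO. The labelled layers carried their defining genes. Of 28 epithelial keratin and junction genes, 25 were higher in endo than in myo in WT and 25 in KO, and of 25 smooth muscle contractile genes 24 were lower in WT and 24 in KO (edgeR quasi-likelihood test, adjusted p below 0.05). Of all genes tested, 13.3% passed the same test of layer in WT and 17.3% in KO.

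A pair of endometrium samples, however, held muscle RNA at the level of whole uterus. Over the 25 contractile genes, the summed level was 25800 CPM in the endometrium of WT mouse 3 and 28400 CPM in that of KO mouse 13, inside the 19200 to 41600 CPM of the whole uterine horns, while the other 6 WT endometrium samples had 1330 to 7570 CPM and the other 6 KO samples 1030 to 2730 CPM. In mouse 13 the 3 repeat libraries gave 27600, 25000 and 31200 CPM, so its level did not come from a single library. In bulk samples, fewer cells of a type and less RNA per cell cannot be told apart. How cleanly the layers were separated in each mouse was not recorded in the labels, and its part in the differences below was not tested. Results that turn on muscle genes are therefore given with and without these mice.

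With all 14 mice and the 4 groups in 1 edgeR fit, none of 14314 genes passed an adjusted p of 0.05 for the interaction (0%), while 658 genes (4.6%) had an unadjusted p below 0.05. Of these, 375 were positive and 283 negative, and the median interaction over all genes was 0.07. Layer differences were broadly alike in the genotypes across genes. Over all 14314 genes, the endo over myo fold change in KO correlated with that in WT at a Pearson r of 0.662 and a Spearman rho of 0.629. The sign was the same in both genotypes for 10489 of them. For the 6929 genes with a mean of at least 10 CPM, the endo over myo fold change in KO followed that in WT with a Pearson r of 0.862 and a Spearman rho of 0.786 across genes, which are not independent replicates, and 5442 of them had the same sign in both genotypes. Endo and myo samples with the same number came from the same animal. When the mouse entered the edgeR fit as a block, 10 genes passed (0.0699% of those tested), 2 with a positive interaction and 8 with a negative one (0.0559%), and 564 genes (3.94%) had an unadjusted p below 0.05. All 8 negative genes belonged to the list of smooth muscle contractile genes. That list also holds *Pcp4*, a calmodulin regulator, and was written with earlier results of these data known. The p-values of the blocked fit follow a normal distribution of the interaction over its standard error (SE). Its SE and p thus rest in effect on a spread pooled over genes, and do not measure the spread of each gene between mice.

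**Figure D1:**
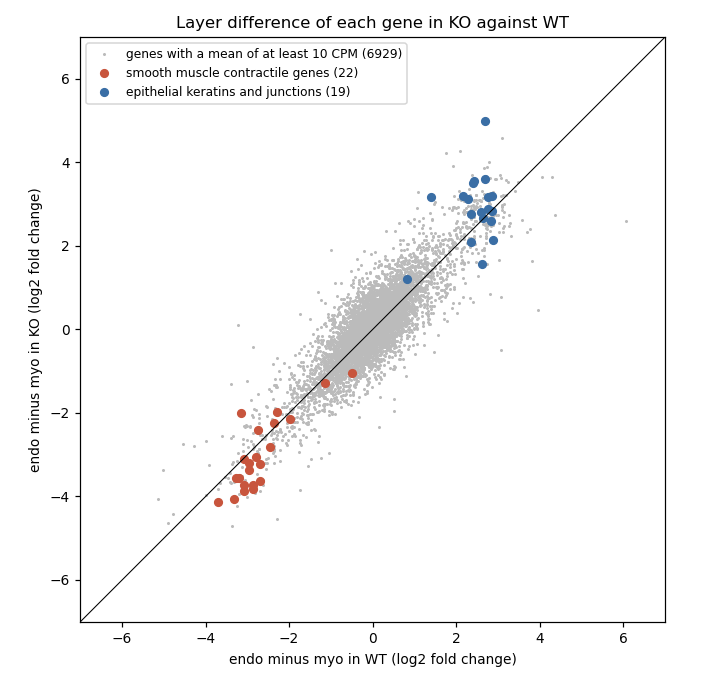
Endo minus myo log2 fold change of each gene in KO (vertical axis) against WT (horizontal axis), for the 6929 genes with a mean of at least 10 CPM (grey), with the contractile genes (red) and the epithelial genes (blue) among them; the line marks equal values. Most points lie along the line (Pearson r of 0.862), and most of the contractile genes lie just below it at the lower left.

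The 8 genes were *Acta2*, *Actg2*, *Tagln*, *Cnn1*, *Myh11*, *Pcp4*, *Myl9* and *Tpm2*. In the NCBIM37 build, on which mm9 is based, *Acta2* lies on chromosome 19 at 34315580 to 34329826, *Actg2* on chromosome 6 at 83462899 to 83486259, *Tagln* on chromosome 9 at 45737711 to 45744141, *Cnn1* on chromosome 9 at 21903725 to 21914074 and *Myh11* on chromosome 16 at 14194620 to 14291501, all as protein-coding genes of GENCODE vM1. *Tagln* overlaps *Pcsk7* on the opposite strand and *Pcp4* overlaps *Igsf5* on its own strand, so their counts could include reads of these neighbours. Promoter sequences were at hand for 5 of the 8 genes, and 3 of these held a CArG box, allowing 1 G or C among its 6 inner A or T letters, within 250 bases before to 50 after the start. The same search found a box in 9.98% of all 32851 promoters of the table, and a box with no such exception in 1.63%, among them that of *Myl9*. The box reads as itself on the opposite strand, so the search covered both. The 3 promoters are shown because their genes have this feature of contractile genes in common. Each is the 180 bases before the start, 5′ to 3′ on the strand of the gene, from RefSeq on GRCm38.p6, with the boxes in capitals.
Acta2, chr19:34255374-34255553, minus strand: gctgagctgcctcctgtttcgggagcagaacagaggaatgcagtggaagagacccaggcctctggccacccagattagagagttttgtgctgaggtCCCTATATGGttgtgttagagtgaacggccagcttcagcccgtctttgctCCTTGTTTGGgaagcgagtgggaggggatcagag
Myl9, chr2:156775284-156775463, plus strand: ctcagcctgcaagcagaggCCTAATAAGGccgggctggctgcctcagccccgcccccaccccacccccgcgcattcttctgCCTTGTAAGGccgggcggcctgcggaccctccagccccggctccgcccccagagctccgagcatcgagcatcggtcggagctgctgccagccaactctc
Pcp4, chr16:96467426-96467605, plus strand: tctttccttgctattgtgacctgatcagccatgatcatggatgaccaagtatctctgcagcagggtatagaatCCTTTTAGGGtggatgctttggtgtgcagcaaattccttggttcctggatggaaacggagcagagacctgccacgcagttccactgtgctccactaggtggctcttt
In *Acta2* the boxes begin 84 and 34 bases before the start, in *Myl9* 161 and 99 bases, and in *Pcp4* 107 bases. No match in the other promoters says only that these letters are not in the window searched.

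*Acta2* encodes smooth muscle alpha actin, the main actin of vascular and uterine muscle. It had 62.9 CPM in the lowest WT endometrium sample, a median of 453 CPM and 3950 CPM in the highest, which was mouse 3. In KO endometrium it had 17.6, 112 and 3420 CPM in the same order, the highest being mouse 13. In myometrium it ranged from 4900 to 10100 CPM in WT (median 6170 CPM) and from 5150 to 11200 CPM in KO (median 7920 CPM). The 6 KO mice other than mouse 13 had 17.6 to 237 CPM in endometrium, from below the lowest WT sample to below the WT median, while the ranges of the genotypes overlapped in myometrium. Its layer difference, endo minus myo in log2 CPM, was -6.25 to -1.35 in WT and -8.79 to -0.84 in KO, with 4 KO mice below every WT mouse and mouse 13 above every WT mouse. The *Acta2* interaction was -0.96 ± 1.00 (SE, edgeR adjusted p of 0.997) and, with the mouse as a block, -2.23 ± 0.35 (edgeR adjusted p of 2.49e-06).

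*Tagln*, which encodes the actin-binding protein transgelin, followed the same order. In WT endometrium it had a low of 73.2 CPM, a median of 271 CPM and a high of 2680 CPM, and in KO endometrium a low of 11.2, a median of 65.4 and a high of 2420 CPM. In myometrium it had 4140 to 8150 CPM in WT (median 6260 CPM) and 4200 to 9210 CPM in KO (median 7280 CPM). Again 4 KO mice had a larger layer difference than any WT mouse, and mouse 13 a smaller one. Its interaction was -0.76 ± 1.00 (edgeR adjusted p of 0.998), and -2.04 ± 0.35 with the mouse as a block (edgeR adjusted p of 3.67e-05).

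*Cnn1* encodes calponin, a regulator of actomyosin in smooth muscle. Its endometrium level was 20.4 CPM at the lowest, 110 CPM at the median and 1130 CPM at the highest in WT, and 8.01, 24.2 and 962 CPM in KO. In myometrium its median was 1880 CPM in WT (1140 to 3250 CPM) and 2620 CPM in KO (1520 to 3010 CPM). In 5 KO mice the layer difference lay below that of every WT mouse. Its interaction was -0.77 ± 0.98 (edgeR adjusted p of 0.998), and -2.06 ± 0.36 with the block (edgeR adjusted p of 5.61e-05). *Myh11*, the smooth muscle myosin heavy chain, had 13.6 to 651 CPM in WT endometrium (median 104 CPM) and 5.62 to 762 CPM in KO endometrium (median 17.1 CPM). Its median in myometrium was 1380 CPM in WT and 1640 CPM in KO. Apart from mouse 13, the KO endometrium samples did not exceed 59.3 CPM, a level that 4 of the 7 WT samples exceeded. The interaction of *Myh11* was -0.29 ± 0.97 (edgeR adjusted p of 0.999), and -1.78 ± 0.37 with the block (edgeR adjusted p of 0.00383).

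**Figure D2:**
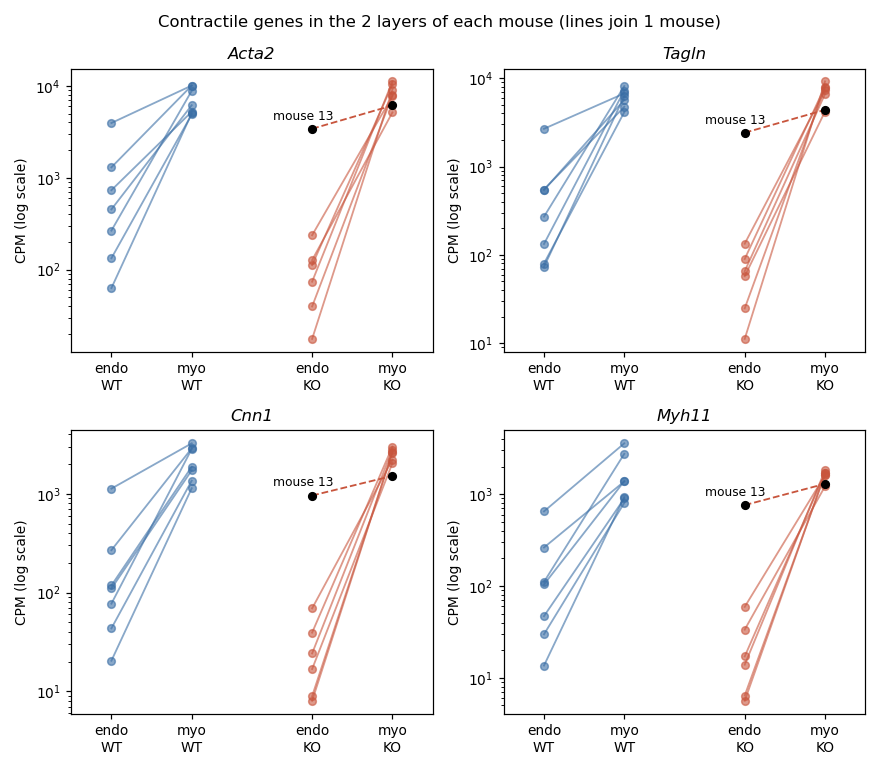
CPM on a log axis of *Acta2*, *Tagln*, *Cnn1* and *Myh11* in endometrium and myometrium of each WT (blue) and KO (red) mouse, with a line joining the layers of 1 mouse. Endometrium of 6 KO mice sits at the lower end, *Acta2* at 17.6 to 237 CPM, while KO mouse 13 (black points, dashed line) has 3420 CPM, near its own myometrium.

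*Actg2*, the enteric and uterine smooth muscle gamma actin, had a median of 244 CPM in WT and 86.6 CPM in KO endometrium, and its blocked interaction was -2.15 ± 0.36 (edgeR adjusted p of 1.36e-05). *Myl9*, a regulatory myosin light chain, had medians of 245 and 85.2 CPM and a blocked interaction of -1.54 ± 0.34 (edgeR adjusted p of 0.0147). *Tpm2*, a tropomyosin, had medians of 749 and 149 CPM and a blocked interaction of -1.46 ± 0.34 (edgeR adjusted p of 0.023). In each of these 3 genes, WT and KO endometrium overlapped, with mouse 3 at the top of WT and mouse 13 at the top of KO. *Pcp4*, a calmodulin regulator that is abundant in myometrium, had medians of 58.2 and 21 CPM and a blocked interaction of -1.72 ± 0.38 (edgeR adjusted p of 0.0147).

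The blocked calls differed in how they held when mice, tool, scaling or filter changed. *Acta2*, *Actg2*, *Tagln* and *Cnn1* passed in each of the 14 blocked fits that left out 1 mouse, *Myh11* and *Pcp4* in 8, *Myl9* in 7 and *Tpm2* in 6. These repeat the same kind of fit, so passing in all of them does not measure the spread of a gene between mice. Without WT mouse 3, the unblocked interactions were 0.40 for *Tagln*, 0.40 for *Cnn1* and 0.34 for *Myh11*, while the blocked interaction of *Acta2* was -1.80 (edgeR adjusted p of 0.00793). With genes limited to those of at least 10 CPM in 5 samples, or with spike-in scaling, none passed in the blocked fit, although the *Acta2* interaction was -2.26 and -1.89 there. When each gene was reduced to 1 layer difference per mouse, none of the 14314 genes passed in limma (adjusted p of 0.979 for *Acta2*). The KO minus WT mean layer difference of *Acta2* was -1.97 on the log2 scale, with an exact two-sided permutation p over mice of 0.115. That of *Cnn1* was -1.77 (exact permutation p of 0.125) and that of *Myh11* -1.57 (exact permutation p of 0.145). These exact tests were run on 14314 genes, with a smallest p of 0.000583 and a smallest Benjamini-Hochberg adjusted p of 0.927, and with 3432 splits no single gene could have passed the adjustment.

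Without mouse 13, the muscle genes came to the top of the gene order. None of 14226 genes passed the unblocked edgeR fit, in which 708 (4.98%) had an unadjusted p below 0.05 and 13 genes passed by DESeq2. In this fit the smallest edgeR adjusted p of 0.164 was shared by *Acta2* (-3.56 ± 0.77), *Tagln* (-3.54 ± 0.74), *Cnn1* (-3.49 ± 0.76) and *Lmod1* (-3.43 ± 0.74), the last encoding an actin nucleator of smooth muscle. With the mouse as a block, 17 genes passed (0.119%), 16 of them negative. Beside the 8 above, these included *Lmod1* (-2.65) and *Tpm1* (-1.44) of the contractile list, *Acta1*, the actin of skeletal muscle (-2.50), and the LIM domain genes *Fhl1* (-1.81) and *Pdlim3* (-1.71), with edgeR adjusted p of 1.52e-05 to 0.0121. They also included *Lum*, a matrix proteoglycan (-2.03, edgeR adjusted p of 0.0203), and *Rprm*, a cell cycle inhibitor that had 0 counts in 4 KO endometrium samples. The exact permutation p for *Acta2* was 0.00816 without mouse 13, for *Cnn1* 0.0035 and for *Lmod1* 0.00291, and the smallest Benjamini-Hochberg adjusted p over all genes was 0.999. When mouse 3 was left out together with mouse 13, 0 genes passed without the block and 10 with it, 9 of which were among the 10 found with all mice. The *Acta2* interaction of that blocked fit was -2.37 (edgeR adjusted p of 5.52e-07).

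As a list, the 25 smooth muscle contractile genes had a median interaction of -0.29 with all mice, against 0.07 over all genes. Of the list, 19 were negative and 0 passed an unadjusted p of 0.05, a level that 4.6% of all genes reached. With the block the list median was -0.61 (22 negative, 8 passing the adjusted threshold, against 0.0699% of all genes). Without mouse 13 the list median was -1.93, with all 25 negative and 14 past an unadjusted p of 0.05. That level was reached by 4.98% of all genes there. Without mice 3 and 13 the list median was -0.81, with 24 negative. Leaving out WT mouse 3 alone turned *Tagln*, *Cnn1* and *Myh11* positive in the unblocked fit, as given above. Spike-in scaling moved the median over all genes to 0.35 and that of the list to 0.16, with 17 positive, so the sign of the list median turned while it stayed below the median of all genes. The library plate split the genotypes unevenly, with 5 WT and 3 KO mice in rows A to C and 2 WT and 4 KO mice, mouse 13 among them, in rows D to F. In rows A to C the list median was -2.84, with all 25 negative and 16 past an unadjusted p of 0.05, a level that 4.96% of all genes reached there. In rows D to F it was 1.30 with 24 positive, and -0.86 with 16 negative when mouse 13 was left out, a setting chosen after the data were seen. With the block, 27 genes passed in rows A to C, 12 of them contractile and *Acta2* at -3.58 (edgeR adjusted p of 2.03e-09), and 3 in rows D to F, none of them contractile and *Acta2* at -0.80 (edgeR adjusted p of 1). *Des*, the intermediate filament protein of muscle, had an interaction of 0.34 ± 0.66 with all mice and -0.88 without mouse 13.

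**Figure D3:**
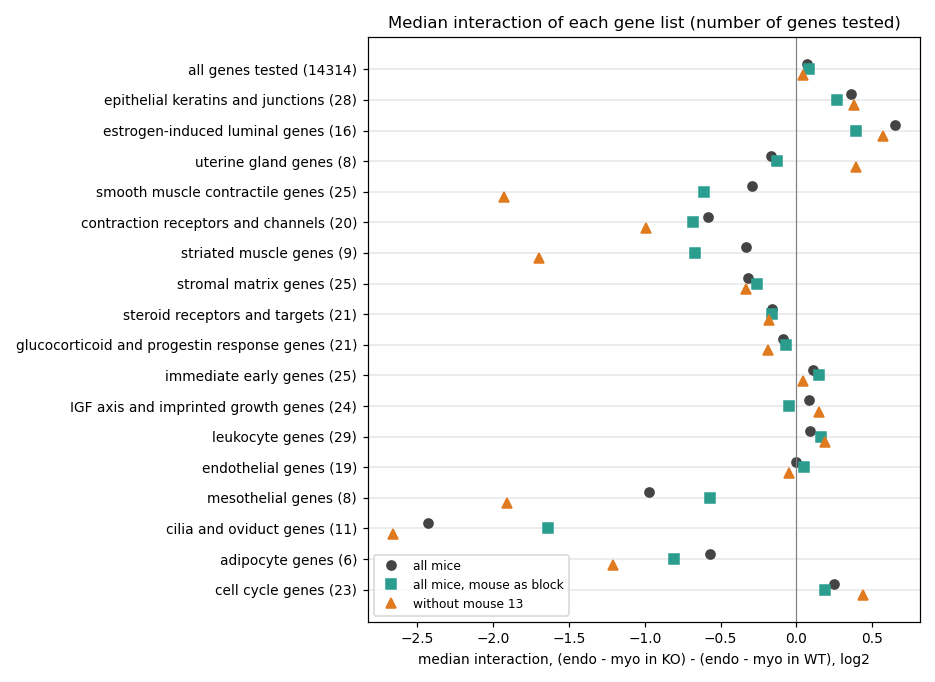
Median interaction (log2) of each gene list with all mice (circles), with the mouse as a block (squares) and without mouse 13 (triangles), with the number of genes tested in brackets. The contractile list moves from -0.29 to -0.61 and -1.93, while the lists of leukocyte, endothelial and immediate early genes stay near 0.

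For the other lists of the outer wall, the share of all genes with a negative interaction was 45.4%, and 4.6% had an unadjusted p below 0.05. The 20 receptors and channels of contraction had a median of -0.58 with 14 negative (70%) and 2 (10%) past an unadjusted p of 0.05. The 2 were *Itpr1*, a calcium release channel (-1.17 ± 0.55, edgeR adjusted p of 0.993), and *Chrm3*. *Chrm3*, the muscarinic receptor of smooth muscle, had 11 counts in WT endometrium and 0 in KO endometrium, but 1 and 2 counts in WT and KO myometrium. These are too few for a fold, so the 10% rests in part on a gene near the floor. *Prkca*, a kinase that acts in contraction among many other processes, had 2.71 to 9.76 CPM in WT endometrium and 0 to 7.95 CPM in KO endometrium, with 4 KO layer differences below all of WT. Its interaction was -1.86 ± 0.68 with all mice and -3.18 ± 0.74 without mouse 13 (edgeR adjusted p of 0.97 and 0.193). Stromal matrix genes had a median of -0.32 (18 of 25 negative), with *Col1a2*, a fibrillar collagen, at -0.62 ± 0.39 (edgeR adjusted p of 0.993). Mesothelial genes had a median of -0.97 (6 of 8 negative, 2 past an unadjusted p of 0.05), adipocyte genes of -0.57 (4 of 6 negative) and striated muscle genes of -0.33 (5 of 9 negative, 55.6%). The mesothelial genes summed to 216 CPM in the endometrium of WT mouse 8 and to 5.03 to 61.6 CPM in the other WT mice. In KO endometrium they summed to 16.3 to 66.1 CPM. No member of these lists passed the adjusted threshold with all mice, with or without the block.

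The layer score condensed the separation of the layers to 1 value per sample, the mean log2(CPM + 1) of 4 epithelial genes (*Epcam*, *Cdh1*, *Krt8*, *Krt18*) less that of 4 muscle genes (*Acta2*, *Cnn1*, *Des*, *Myh11*). Its difference, endo minus myo, was 6.63 ± 1.33 in WT and 8.27 ± 2.57 in KO (SD, n = 7 mice each), 1.64 higher in KO (exact two-sided permutation test, p = 0.164). WT mice ranged from 4.52 to 8.71 and KO mice from 3.57 to 11.98, with mouse 13 the lowest. Without mouse 13 the difference between genotypes was 2.42 (exact permutation p = 0.00991), and without WT mouse 3 alone 1.28 (exact permutation p = 0.287). Leaving out mice 3 and 13 together gave 2.07 (exact permutation p = 0.0216). That setting was chosen after the data were seen, for muscle RNA that also enters the score, so its p is descriptive only. In rows A to C the difference between genotypes was 2.94 (exact permutation p = 0.0357, where 0.0179 is the smallest that the 56 splits allow) and in rows D to F 0.0764 (exact permutation p = 1, where 0.0667 is the smallest possible).

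Of the parts of the score, the muscle genes in endometrium moved with it. Their mean was 7.79 ± 1.61 in WT and 6.52 ± 2.06 in KO endometrium, or 5.82 ± 0.95 without mouse 13. In myometrium the same genes had 11.5 ± 0.63 in WT and 11.7 ± 0.30 in KO. The epithelial genes had 7.44 ± 0.61 and 7.85 ± 0.36 in WT and KO endometrium, and 4.55 ± 0.95 and 4.76 ± 1.00 in myometrium. Thus the layer difference of the muscle genes was -5.28 to -1.97 in WT and -7.35 to -4.38 in the 6 KO mice other than mouse 13, which had -0.54.

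**Figure D4:**
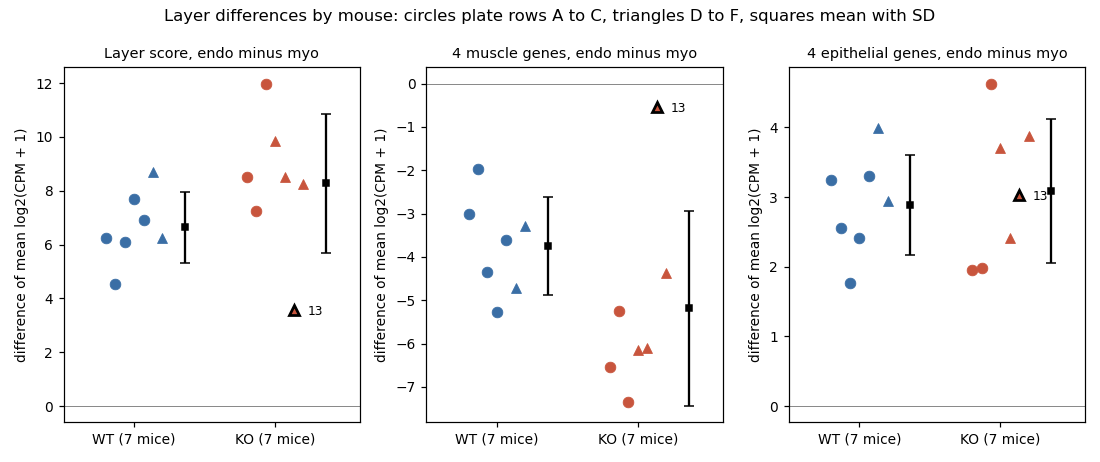
Endo minus myo of the layer score (left), of its 4 muscle genes (middle) and of its 4 epithelial genes (right) in each mouse, with circles for plate rows A to C, triangles for rows D to F and squares with bars for the mean and SD. KO mice other than 13 lie at -7.35 to -4.38 for the muscle genes against -5.28 to -1.97 in WT. These ranges overlap, as do those of the epithelial genes.

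Across all genes, the size of the layer difference did not separate the genotypes. The slope of the layer differences of a mouse on the mean of the other mice was 0.828 ± 0.187 in WT and 0.959 ± 0.178 in KO (SD, n = 7 mice each, exact permutation p = 0.196). Genotype took 7.79% of the variance of the layer differences over the 14314 genes, a share that many random splits of the mice also reach (exact one-sided permutation test, p = 0.352).

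No epithelial gene passed the adjusted threshold for the interaction. The 28 keratin and junction genes had a median interaction of 0.36, with 19 positive, and 3 positive genes and 1 negative gene past an unadjusted p of 0.05. These 4 genes were 14.3% of the list, against 4.6% of all genes, and with the block 17.9% of the list passed that level, against 3.94% of all genes. *Krt8*, a keratin of simple epithelia, had a median of 371 CPM in WT endometrium and 512 CPM in KO endometrium, and 38.9 and 85.7 CPM in myometrium. Its layer differences overlapped, at 1.94 to 4.13 in WT and 1.61 to 4.73 in KO, and its interaction was 0.11 ± 0.59 (edgeR adjusted p of 1). *Epcam*, an epithelial adhesion protein, had 96.9 to 362 CPM in WT and 122 to 380 CPM in KO endometrium and an interaction of 0.40 ± 0.59 (edgeR adjusted p of 0.998). The 16 estrogen-induced luminal genes had a median of 0.65 with 11 positive, but 1.54 in plate rows A to C and -0.70 in rows D to F. Uterine gland genes had a median of -0.17, and *Sox9*, a factor of the glandular epithelium, had an interaction of -0.77 ± 0.58 (edgeR adjusted p of 0.993). Of 11 genes of cilia and oviduct, 9 were negative with a median of -2.43. The list summed to 5880 CPM in the endometrium of WT mouse 8, to 82.9 to 207 CPM in the other WT mice and to 100 to 631 CPM in KO. How far the list median rests on WT mouse 8 was not tested. *Ovgp1*, the oviductal glycoprotein, reached 5310 CPM in the endometrium of WT mouse 8 and at most 106 CPM in the other WT samples, and its interaction of -3.48 ± 1.41 was -0.27 without that mouse.

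A pair of genes passed the blocked fit with a positive interaction. *Fkbp5*, a co-chaperone of steroid receptors that glucocorticoids and progestins induce, lies on chromosome 17 at 28536040 to 28654469. In WT it had 0 to 5.37 CPM in endometrium (median 1.7 CPM) and 6.35 to 47.5 CPM in myometrium (median 20.6 CPM). In KO it had 0 to 28.4 CPM (median 11.2 CPM) and 2.1 to 14.6 CPM (median 10.5 CPM). Endometrium was thus the lower layer in all 7 WT mice, with layer differences of -4.07 to -0.69, whereas in KO the differences were -1.14 to 1.37, and 5 KO mice lay above every WT mouse. The interaction of *Fkbp5* was 3.34 ± 0.77, with the smallest p of all genes (unadjusted edgeR p of 9.66e-05, adjusted p of 0.97), and 3.07 ± 0.70 with the block (edgeR adjusted p of 0.0171). Its layer difference was 2.14 higher in KO (exact permutation p of 0.00175, Benjamini-Hochberg adjusted p of 0.987 over all genes). By plate, the interaction was 1.52 in rows A to C and 4.66 in rows D to F, and the blocked call was lost in 6 of the 14 fits that left out 1 mouse, namely WT mice 1, 10 and 12 and KO mice 9, 11 and 14, with interactions of 2.68 to 3.60 over the 14 fits. Without mouse 13 it passed the blocked fit (3.06, edgeR adjusted p of 0.0328).

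*Stat2*, a transcription factor of the interferon response, lies on chromosome 10 at 127707629 to 127729905. It had 0 to 25.5 CPM in WT endometrium (median 9.38 CPM) and 5.93 to 125 CPM in KO endometrium (median 32.7 CPM). In myometrium it had 2.11 to 61.6 CPM in WT (median 6.86 CPM) and 0 to 30.7 CPM in KO (median 7 CPM). The groups overlapped in both layers, and 3 KO layer differences lay above those of all WT mice. The interaction was 2.91 ± 0.90 (edgeR adjusted p of 0.97) and 2.54 ± 0.57 with the block (edgeR adjusted p of 0.0149), a call that was lost without mouse 13 (edgeR adjusted p of 0.0786) and in 7 of the 14 fits that left out 1 mouse (WT 1, 10 and 12 and KO 4, 6, 9 and 13). The glucocorticoid and progestin list as a whole did not follow *Fkbp5*, with 12 of its 21 members negative and a median of -0.09. Its member with the next smallest p, *Ddit4*, was positive (1.46 ± 0.85, edgeR adjusted p of 0.993). *Nr3c1*, the glucocorticoid receptor, had an interaction of -0.97 ± 0.49, and *Fkbp4*, a further steroid receptor co-chaperone, of 0.74 ± 0.42 (edgeR adjusted p of 0.993 for both). The 21 steroid receptors and targets had a median of -0.16, with 15 negative.

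Among genes of at least 10 CPM in a group, those with the smallest p outside the lists did not pass the adjusted threshold. *Ptpn1*, a protein tyrosine phosphatase, had 43 to 161 CPM in WT endometrium (median 94 CPM) and 30.7 to 65.5 CPM in KO endometrium (median 44.9 CPM), with medians of 47.5 and 52.6 CPM in myometrium. In 6 KO mice its layer difference lay below that of every WT mouse, and the interaction was -1.60 ± 0.43 (unadjusted edgeR p of 0.000592, adjusted p of 0.97). *Ybx1*, an RNA- and DNA-binding protein, had a median of 309 CPM in WT and 138 CPM in KO endometrium, against 169 and 227 CPM in myometrium, and an interaction of -1.45 ± 0.40 (edgeR adjusted p of 0.97). *Krcc1* had medians of 13.4 and 4.81 CPM in WT and KO endometrium and an interaction of -2.17 ± 0.59 (edgeR adjusted p of 0.97). These 3 genes kept their sign in both parts of the plate, with *Ptpn1* at -1.16 and -1.45, *Ybx1* at -1.29 and -1.75 and *Krcc1* at -2.19 and -2.28 in the upper and lower rows. Among positive genes were *Rab5c*, a GTPase of early endosomes (1.19 ± 0.35), *Ndrg2* (1.21 ± 0.36), *Il17re*, an epithelial interleukin receptor subunit (2.21 ± 0.68), and *Senp3*, a SUMO protease (2.22 ± 0.67), each with an edgeR adjusted p of 0.97.

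The layer differences of KO mice lay wholly below those of WT for 2 genes (0.014%) and wholly above for 7 genes (0.0489%), and below for 4 (0.0279%) when mouse 13 was left out. With all mice, random genotype labels would separate a gene wholly, in either direction, with a probability of 0.000583. The shares seen are of that order, so the genes are described here and not called different. *Fam206a* was below, with 0.18 to 1.16 in WT and -1.63 to 0.09 in KO and an interaction of -1.92 ± 0.56 (edgeR adjusted p of 0.97). The other was *Armcx3*, and without mouse 13 *Col14a1* and *Slc39a3* joined them, 3 genes named after their values were seen. *Gimap5*, a GTPase needed for lymphocyte survival, was above. It had 2.71 to 16.1 CPM in WT and 5.69 to 13.1 CPM in KO endometrium, and 4.96 to 16.9 CPM in WT myometrium against 0 to 5.25 CPM in KO myometrium. In endometrium the genotypes overlapped, and in myometrium they met only between 4.96 and 5.25 CPM. In KO myometrium libraries 3 counts correspond to 4.34 to 9.68 CPM, so the values of *Gimap5* there rest on few counts. *Gimap5* also overlaps *Gimap1* on its own strand, so its counts could include reads of that gene. The interaction was 2.24 ± 0.62 (edgeR adjusted p of 0.97).

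**Figure D5:**
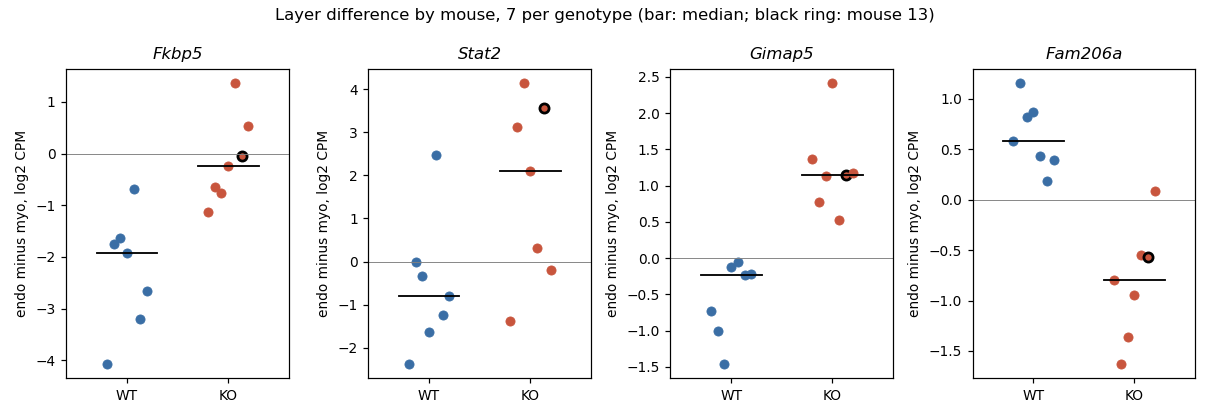
Endo minus myo in log2 CPM of *Fkbp5*, *Stat2*, *Gimap5* and *Fam206a* in each of 7 WT (blue) and 7 KO (red) mice, with bars at the medians and a ring around mouse 13. The genotypes overlap for *Fkbp5* and *Stat2* and are apart for *Gimap5* (WT up to -0.05, KO from 0.52) and *Fam206a* (WT from 0.18, KO up to 0.09).

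Genes of blood cells and vessels were near the background. The 29 leukocyte genes had a median interaction of 0.09 with 2 positive genes past an unadjusted p of 0.05. These were *Ccr2*, a chemokine receptor of monocytes (1.73 ± 0.63, edgeR adjusted p of 0.97), and *C1qb*, a complement component made by macrophages (0.79 ± 0.39, edgeR adjusted p of 0.993). *C1qb* had a median of 52.7 CPM in WT and 79.6 CPM in KO endometrium and 54.8 and 50.1 CPM in myometrium, with overlap in both layers. *Icam2*, an adhesion molecule of endothelium and leukocytes, had medians of 25.3 and 35.7 CPM in endometrium and 34.1 and 20.9 CPM in myometrium (1.45 ± 0.44, edgeR adjusted p of 0.97), with 2.56 in plate rows A to C and 0.34 in rows D to F. The 19 endothelial genes had a median of 0.00, and the 1 red blood cell gene tested had -0.13.

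In the IGF axis and among imprinted growth genes the median was 0.08 over 24 genes. *Igf1*, which stroma makes under estrogen, had a median of 129 CPM in WT and 56.5 CPM in KO endometrium and 198 and 228 CPM in myometrium, with 4 KO layer differences below all WT mice and an interaction of -1.11 ± 0.48 (edgeR adjusted p of 0.993). *Igfbp5*, an IGF-binding protein, had medians of 108 and 261 CPM in endometrium and 311 and 397 CPM in myometrium and an interaction of 0.95 ± 0.51 (edgeR adjusted p of 0.993). The 25 immediate early genes had a median of 0.11 and the 23 cell cycle genes 0.25, each with 1 negative gene past an unadjusted p of 0.05.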

How the data were processed

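RNA from scraped endometrium and remaining myometrium (10 ng per library) was sequenced by STRT, which tags the 5′ end of transcripts with molecular identifiers. The deposited values are counts per gene, which the authors made by alignment to mm9 and gene-level counting (HTSeq per the labels, Homer per the study's methods). From these, spike-ins were set aside, repeat libraries summed and genes with at least 1 CPM in 5 samples kept (14314). edgeR 4.0.16 (R 4.3.3, TMM factors, quasi-likelihood test, Benjamini-Hochberg adjustment) tested the interaction in a model of 4 group means, and with the mouse as a block. DESeq2 1.42.0 and limma 3.58.1 were alternatives. CPM in the text use TMM-scaled totals, and log2 CPM a prior count of 2. Single values per mouse were tested by exact permutation of genotypes. Same-numbered samples come from the same animal by the labels, and their deviations from group means correlated at 0.0285 to 0.126 in WT and 0.0869 to 0.183 in KO. Genes were named where they passed the adjusted threshold with or without the block and mouse 13 (up to 15 per fit), had 1 of the 12 smallest p with or without mouse 13 among genes of at least 10 CPM in a group, were 1 of the 2 members of a list with the smallest p, or were score genes, Plag1, Plagl1, Plagl2 or Igf2, and not all of them are described. The comparison, lists and rules were chosen with earlier results of these data known. The 31 libraries had 264095 to 1024124 counts, and floors of 3 counts cover counting error only. Whether counting used strand is not given in the sources used here. Scripts were tested on simulated data.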

Additional observations from a re-analysis of the deposited data

Results flagged for a closer look

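In KO mouse 13 the layer score of the endometrium was -3.16, far from the other 6 KO mice at 0.738 to 3.57. The same mouse stood apart in the KO layer differences of *Tagln* (-0.861), *Cnn1* (-0.657), *Myh11* (-0.766), *Pcp4* (-0.97), *Myl9* (-0.242) and *Tpm2* (-0.751), where the next KO mice had -5.73, -4.95, -4.69, -5.76, -4.92 and -4.71. In all, 28 groups of 7 mice were examined by Dixon's criterion and 7 of them had a sample apart, where chance gives about 1 in 20. These values come from the same endometrium sample and share its muscle RNA.

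With the mouse as a block, 10 genes passed the adjusted threshold for the interaction, on a spread in effect pooled over genes. The interactions were -2.23 for *Acta2*, -2.15 for *Actg2*, -2.04 for *Tagln*, -2.06 for *Cnn1*, -1.78 for *Myh11*, -1.72 for *Pcp4*, -1.54 for *Myl9*, -1.46 for *Tpm2*, 2.54 for *Stat2* and 3.07 for *Fkbp5*. None of the 10 passed without the block, or in limma on 1 layer difference per mouse.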

How the results depend on the processing

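The count of genes past the threshold was 0 without the block under every alternative run with all mice, and 10 with the replicate block. Without mouse 13 it was 0, but 17 with the replicate block, 13 by DESeq2, 5 with no gene filter and 7 with all 6 groups in the fit. The 10 blocked calls became 5 to 19 when 1 mouse was left out, with 5 without KO mouse 6 or 9, 6 without WT mouse 1 or 3 or KO mouse 11, and 19 without WT mouse 5. They became 27 in plate rows A to C, 3 in rows D to F, and 0 in rows D to F without mouse 13, with a filter at 10 CPM, with spike-in scaling and in limma on layer differences. These blocked alternatives, and those without mice 3 and 13, were chosen after seeing the data. The layer score difference was 2.94 in rows A to C, 2.07 without mice 3 and 13, and 1.02 to 2.42 with 1 mouse left out. The layer slope difference was -0.00191 in rows D to F. The cause of these changes was not tested.

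Of 41 named genes, 23 kept their sign in all alternatives of the unblocked fit. In rows D to F alone the sign turned for *Acta2* (1.16), *Actg2* (1.62), *Tagln* (0.83), *Cnn1* (1.48), *Myh11* (1.38), *Pcp4* (1.26), *Myl9* (1.73), *Tpm2* (0.97), *Lmod1* (1.30), *Tpm1* (1.30), *Acta1* (1.46), *Fhl1* (1.54), *Rprm* (2.65), *Lum* (0.46), *Krt8* (-0.34) and *Epcam* (-1.24). With spike-in scaling it turned for *Myh11* (0.31), *Pcp4* (0.23), *Myl9* (0.36), *Tpm1* (0.08), *Acta1* (0.19), *Fhl1* (0.06) and *Rprm* (0.26). *Des* was -0.34 with the block, -0.11 in limma with a random block, -0.39 with the plate as covariate, -1.04 in rows A to C, -1.0 in rows D to F without mouse 13 and -0.75 without mice 3 and 13. *Krt8* was -0.25 with the block, -0.32 in limma and -0.31 in rows D to F without mouse 13, *Epcam* -1.26 in the last, and *Ovgp1* 0.27 by DESeq2. With 1 mouse left out, the ranges were -3.83 to 0.30 for *Actg2*, -3.54 to 0.40 for *Tagln*, -3.49 to 0.40 for *Cnn1*, -2.91 to 0.34 for *Myh11*, -3.64 to 0.77 for *Pcp4*, -2.98 to 0.68 for *Myl9*, -2.85 to 0.32 for *Tpm2*, -3.43 to 0.36 for *Lmod1*, -2.15 to 0.48 for *Tpm1*, -3.20 to 0.68 for *Acta1*, -4.21 to 1.21 for *Rprm*, -0.88 to 0.58 for *Des*, -0.37 to 0.21 for *Krt8* and -0.26 to 0.70 for *Epcam*. For the first 11 of these the highest value was that without WT mouse 3. At 3 counts per library the depth limits values under 2.96 to 11.7 CPM, which covers much of *Fkbp5*, *Stat2* and *Gimap5* in single samples.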
